A study of Caenorhabditis elegans with 79 samples.

Results

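In the worm Caenorhabditis elegans, 22G-RNAs are small RNAs that begin with G and are made by RNA-dependent RNA polymerases on an mRNA that a primary small RNA has already marked. One kind of primary small RNA is called 23H-RNA in the deposited tables. RDE-1 is the Argonaute protein that binds primary siRNAs in RNA interference (RNAi). RDE-4 is a double-stranded RNA (dsRNA) binding protein that works with the nuclease Dicer, and it is known for its part in making primary siRNAs and 26G-RNAs. 26G-RNAs are another kind of primary small RNA, and those carried by the Argonaute ERGO-1 in the female germ line and embryo also lead to 22G-RNAs.

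The genes described here are those whose 22G-RNA row carries the class "23H target 22G" and averaged 1 RPM (reads scaled to library size) or more in N2 adults, with Y47H10A.5 left out, although no row of the class was that gene. Of 36 rows of the class, 34 met the rule, among 6891 genes with a 22G-RNA row in the same table. The genes were thus chosen by their N2 level in adults, and adult values against N2 are given as a description with no test. Just above the limit lay dnj-27 at 3.21 RPM, Y116A8C.27 at 4.08 RPM and Y116F11A.1 at 11.9 RPM. Below it lay F19B2.5 at 0.52 RPM and rncs-1 at 0.203 RPM. How the authors drew the class is not given in the sources used here. It may have been drawn from these same libraries, so a direction shared by its genes is not independent evidence.

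All libraries came from whole animals and were treated with RppH, a pyrophosphohydrolase that opens the 5′ triphosphate of 22G-RNAs to cloning. L4 larvae were rde-4(syb6665) or N2, the wild-type strain, at 54 h with no RNAi and 3 libraries each. Gravid hermaphrodite adults were rde-4(syb6665), rde-1(ne300) or N2 at 72 h under combined RNAi of nrfl-1 and oma-1, with 3 libraries each. A further set of adults under the same RNAi carried rde-1(cmp133), in which RDE-1 is fused to GFP and 3xFLAG, either with rde-4(syb6665) or with wild-type rde-4. From these, small RNAs were taken from the lysate (input) and from the RDE-1 co-immunoprecipitate (co-IP), with 2 libraries of each. That set holds neither an untagged co-IP nor animals without RNAi. The labels do not say that replicates came from separate cultures, so p-values measure the spread between these libraries, which may be technical.

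The steps of piRNA values put the depth at 18.8 to 22.2 M reads for L4 libraries, at 17.4 to 22.6 M for adult libraries and at 12.8 to 22.8 M for RDE-1 libraries. The limit that a count of 0 allows, 3 reads, was 0.131 to 0.234 RPM, for counting error only. Several RDE-1 libraries stood apart from their replicates. All 23H-RNA rows summed to 3564 and 935 RPM in the mutant co-IPs, 275 and 1036 RPM in the mutant inputs, 63072 and 139696 RPM in the wild-type co-IPs, and 595 and 683 RPM in the wild-type inputs. The ERGO-class 26G-RNAs, which mark the female germ line, summed to 26.9 to 30.8 RPM in rde-4 adults, 471 to 520 RPM in rde-1 adults and 569 to 590 RPM in N2 adults. The miR-35 family, which marks embryos, summed to 13760 to 14360 RPM in rde-4 adults, 25920 to 26830 RPM in rde-1 adults and 28540 to 30760 RPM in N2 adults. In the GFP::RDE-1 inputs it summed to 18550 to 20660 RPM in the mutant and 33730 to 38410 RPM in the wild type. In L4 larvae the same family summed to 806 to 909 RPM in rde-4 and 1145 to 1307 RPM in N2. The let-7 family of the hypodermis summed to 47860 to 51180 RPM in rde-4 larvae and 49300 to 49930 RPM in N2 larvae. Muscle miR-1-3p was at 16810 to 19760 RPM in rde-4 larvae and 16130 to 18560 RPM in N2 larvae. The ALG-class 26G-RNAs, which mark spermatogenesis, summed to 385 to 526 RPM in rde-4 larvae and 8667 to 9224 RPM in N2 larvae. Because RDE-4 is known for its part in making 26G-RNAs, neither 26G-RNA sum can serve as a measure of germ-line content in rde-4. The part that embryo or germ-line content has in the values below was not tested. Fewer cells of a type and less small RNA per cell cannot be told apart in whole animals.

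The 34 genes fell into 3 kinds by what else is known of them. Ribosomal RNA gave 5 rows, rrn-1.1, rrn-1.2 (both small-subunit rRNA), rrn-2.1 (5.8S rRNA), rrn-3.1 (large-subunit rRNA) and rrn-3.56, which the annotation calls a pseudogene. They lie beside one another on chromosome I, and rrn-1.1 and rrn-1.2 had identical values in every library. These 2 rows are 1 measurement, though the counts below hold both. A second kind, 15 genes, also had a row among the ERGO-pathway 22G-RNA targets and is called ERGO-listed here. The other 14 genes hold jmjc-1, which encodes a JmjC-domain protein, dnj-27, which encodes a DnaJ-domain protein of the endoplasmic reticulum, and 12 genes known by clone names only. By the Ensembl annotation of WBcel235, 17 genes are protein coding, 10 are pseudogenes, 4 are rRNA genes, 2 are noncoding RNA genes and 1 is a snoRNA gene. Chromosome IV carried 11 of them, chromosome I 9, chromosome V 8, chromosome II 4, and chromosomes III and X 1 each. Of the 34, 16 lay within 10 kb of another. Y57G11C.57 and the snoRNA gene Y57G11C.1145 were 6 bp apart on chromosome IV, and E01G4.5 with E01G4.7, K02E2.6 with K02E2.11, T05E12.8 with T05E12.10 and Y24F12A.3 with Y24F12A.4 were neighbours. The Y24F12A pair had nearly the same values throughout and may share reads, and the counts below hold both genes. WAGO-class rows existed for 19 of the genes and a CSR-class row for 1, and such rows repeat the same values, so a read can count in more than 1 row.

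Of 1194 23H-RNA sequences in the adult table, 535 were named for at least 1 of these genes, and 42 of them for more than 1. Y57G11C.57 was the only gene of the 34 with none. F43E2.6, a protein-coding gene on chromosome II (7366455 to 7368861, minus strand, WBcel235), had 87, and Y57G11C.1145 (chromosome IV, 14780839 to 14780933, plus strand) had 123, while every other gene had 34 or fewer. In F43E2.6, 72 of the 87 sequences had a partner of the same length that paired with it to leave 2 unpaired bases at each 3′ end, the shape of a Dicer product, and in Y57G11C.1145 62 of 123 did. The pair with the most abundant strand in the wild-type RDE-1 co-IP is shown for each gene because the results below differ between these 2 genes and the rest. Capitals mark the bases that pair with the partner, read 5′ to 3′ from the deposited sequences.

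F43E2.6 strand 1: TTTGCCGATGTTTCTGAGATGtc
F43E2.6 strand 2: CATCTCAGAAACATCGGCAAAtg
Y57G11C.1145 strand 1: TGGAGTGGATGACGACGACGAtg
Y57G11C.1145 strand 2: TCGTCGTCGTCATCCACTCCAcc

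Strand 1 of F43E2.6 averaged 355 RPM in the mutant co-IP, 232 RPM in the mutant input, 45520 RPM in the co-IP of the wild type and 260 RPM in its input. Strand 2 averaged 18.5 RPM in the mutant co-IP, 31.5 RPM in the mutant input, 6801 RPM in the co-IP of the wild type and 29.6 RPM in its input. Strand 1 was thus the more abundant one in all 4 groups. The leading 23H-RNA of the wild-type co-IP is also shown for Y57G11C.1145, which shares it with Y57G11C.51, and for 4 genes named in the comparisons below. Capitals mark the first base, which is not G in any of them.

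Y57G11C.1145 and Y57G11C.51: Agtggagtggatgacgacgacg
Y17D7C.3: Aatcggaaactcaaagaccaca
Y37E11B.2: Tatctcgataccatgtctcaccc
K02E2.6: Ttcgagactcgtcagatctgca
Y59H11AR.6: Caataaaaacaatggacaactg

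The first of these averaged 135 RPM in the mutant co-IP, 57.1 RPM in the mutant input, 8232 RPM in the co-IP of the wild type and 44.9 RPM in its input. The K02E2.6 sequence averaged 0.09 RPM in the mutant co-IP and 24.7 RPM in the wild-type co-IP. The Y37E11B.2 sequence averaged 0.14 RPM in the mutant co-IP and 32.9 RPM in the wild-type co-IP.

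In adults, the 22G-RNAs of the 34 genes together came to 1999 to 2128 RPM in rde-4, 3830 to 3962 RPM in rde-1 and 4211 to 4295 RPM in N2. This was 0.503% to 0.552% of all 22G-RNA in rde-4, 1.04% to 1.06% in rde-1 and 1.12% to 1.15% in N2. The highest gene in N2 was rrn-3.1, with 883, 936 and 965 RPM in rde-4, 759, 703 and 716 RPM in rde-1, and 735, 702 and 770 RPM in N2. The rde-4 libraries were above all others.

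Y17D7C.3, an ERGO-listed pseudogene on chromosome V, had 54.8, 45.9 and 48.3 RPM in rde-4, 240, 227 and 249 RPM in rde-1, and 397, 422 and 341 RPM in N2. Its 3 groups did not overlap, and the rde-1 mean was 61.8% of that of N2. rrn-3.56 had 364, 395 and 424 RPM in rde-4, 395, 367 and 369 RPM in rde-1, and 373, 349 and 390 RPM in N2, and its groups overlapped. Y37E11B.2, a protein-coding gene on chromosome IV, had 18.4, 13.7 and 12.8 RPM in rde-4, 468, 466 and 468 RPM in rde-1, and 373, 346 and 349 RPM in N2. Here the rde-4 libraries lay far below and the rde-1 libraries above those of N2. Y37E3.30, a protein-coding gene on chromosome I, had 8.87, 6.37 and 7.06 RPM in rde-4, 262, 251 and 260 RPM in rde-1, and 300 (299.9), 332 and 294 RPM in N2. Its rde-4 mean was 2.41% of that of N2 and its rde-1 mean 83.4%. jmjc-1 had 267, 272 and 259 RPM in rde-4, 349, 345 and 348 RPM in rde-1, and 274, 274 and 288 RPM in N2, with the rde-1 libraries highest.

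E01G4.5, an ERGO-listed gene on chromosome II, had 6.63, 4.28 and 4.82 RPM in rde-4, 162, 151 and 160 RPM in rde-1, and 204, 225 and 217 RPM in N2. The order rde-4, rde-1, N2 held in every library. Y57G11C.51, a protein-coding gene about 6 kb from the snoRNA gene Y57G11C.1145, had 9.66, 8.67 and 7.97 RPM in rde-4, 76.6, 78.4 and 79.2 RPM in rde-1, and 183, 196 and 171 RPM in N2. Y59H11AR.6, a pseudogene on chromosome IV, had 19.5, 17.2 and 19.6 RPM in rde-4, 221, 230 and 232 RPM in rde-1, and 183, 170 and 175 RPM in N2. These 2 genes differed in rde-1, which lay below N2 in Y57G11C.51 and above it in Y59H11AR.6. Y57G11C.1145 itself had 14.1, 14.9 and 13.7 RPM in rde-4, 14.9, 17.0 and 14.6 RPM in rde-1, and 159, 156 and 135 RPM in N2. Both mutants were low there, and their libraries overlapped.

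**Figure D1:**
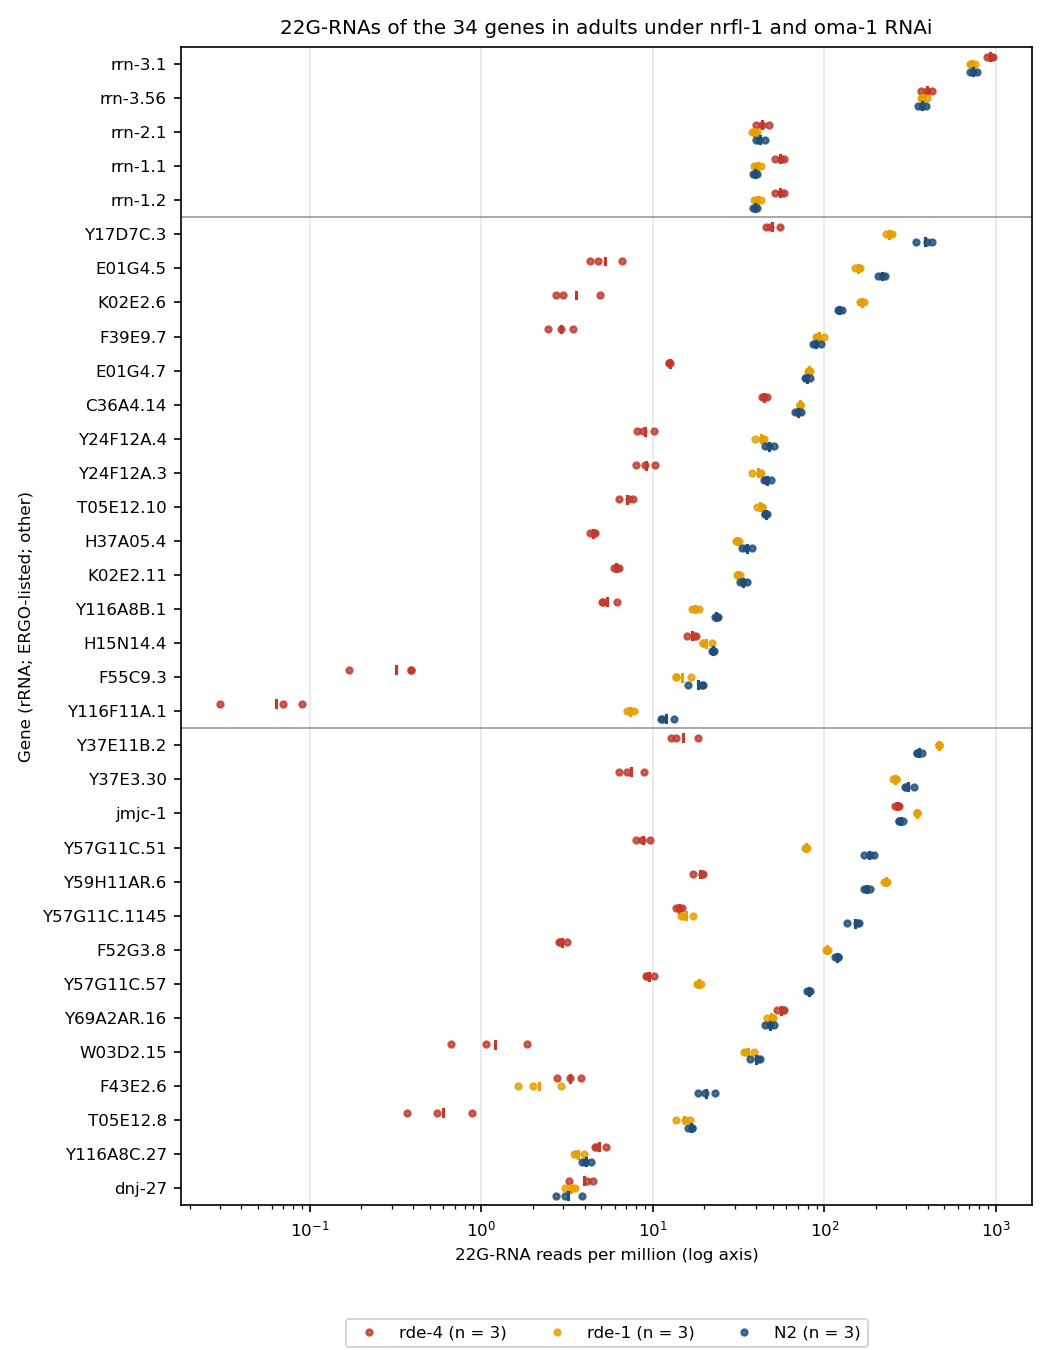
Level of 22G-RNA in adults for each of the 34 genes, in RPM on a log axis. Points are libraries and short bars are means for rde-4, rde-1 and N2 (3 libraries each), with rRNA rows at the top, ERGO-listed genes in the middle and the other genes below. In Y57G11C.1145 and F43E2.6 the rde-1 points lie with the rde-4 points, and in the other 24 genes lower in rde-4 than in N2 all rde-1 points lie to the right of the rde-4 points.

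Over all 34 genes, 26 were lower in every rde-4 library than in any N2 library and 5 were higher. Of 8771 rows of any class with at least 1 RPM in N2, 7.59% were lower and 30.5% were higher by the same count, and nothing is read from the genes' own count because the N2 level chose them. All 15 ERGO-listed genes were among the 26 lower ones, with 0.531% (Y116F11A.1) to 75.8% (H15N14.4) of the N2 level and a median of 15.5%. The 5 higher rows were rrn-1.1, rrn-1.2, rrn-3.1, Y69A2AR.16 and Y116A8C.27, and rrn-2.1, rrn-3.56 and dnj-27 overlapped.

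In rde-1, 15 of the 34 genes were lower than N2 without overlap and 4 were higher, beside 12.4% and 14.5% of all such rows. The higher ones were K02E2.6, jmjc-1, Y37E11B.2 and Y59H11AR.6, and 7 genes were higher with the second N2 library left out. The rde-1 and rde-4 comparisons share their N2 libraries. Less than 50% of the N2 level was left in 4 of the 34 genes in rde-1 and in 23 in rde-4, beside 1.01% and 3.16% of the 8771 rows, and nothing is read from these counts either. The 4 were F43E2.6, with 10.7% in rde-1 and 16.0% in rde-4, Y57G11C.1145, with 10.3% and 9.49%, Y57G11C.57, with 22.8% and 11.8%, and Y57G11C.51, with 42.6% and 4.79%. F43E2.6 itself had 3.27, 3.79 and 2.76 RPM in rde-4, 1.99, 1.63 and 2.92 RPM in rde-1, and 22.97, 20.1 and 18.4 RPM in N2. F43E2.6 and Y57G11C.1145 had the most 23H-RNAs with a Dicer-shaped partner, but Y57G11C.51 had only 4 and Y57G11C.57 had 0. T05E12.8 and C36A4.14, with 10 each, kept 91.1% and 102.6% of the N2 level in rde-1. Whether the rde-1 level goes with the number of such 23H-RNAs was not tested. The highest share of the N2 level in rde-1 was in K02E2.6. It had 4.95, 2.72 and 3.0 RPM in rde-4, 162, 169 and 163 RPM in rde-1, and 126, 121 and 119 RPM in N2.

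The direct comparison of rde-4 with rde-1 adults asks where loss of the 2 proteins differs. Its changes are between the 2 mutants, but the N2 libraries that chose the genes also entered the filter and the estimate of spread. Most of the 34 genes had less 22G-RNA in rde-4 than in rde-1, and the largest falls were in K02E2.6, Y37E3.30 and Y37E11B.2. In limma, K02E2.6 fell by 5.22 ± 0.14 (SE) on the log2(RPM + 1) scale with a Benjamini-Hochberg (BH) adjusted p of 2.74e-10. Y37E3.30 changed by -4.95 ± 0.09 and Y37E11B.2 by -4.89 ± 0.10. Fitted over rows of every level, 24 of the 34 genes were called lower and 3 higher at an adjusted p under 0.05, beside 3.16% of all rows lower and 4.51% higher. Of the 30 genes that averaged 10 RPM or more over all libraries, 23 were lower and 4 higher, beside 8.24% and 22.3% of the 5450 rows tested. The 30 had a median change of -2.22 and the rows 0.095. With the N2 libraries left out of filter and fit, 21 of 28 genes were lower and 4 higher, beside 442 and 1114 of 5437 rows. Scaled to equal miRNA totals, 291 rows were lower and 3271 higher, against 449 and 1213 as deposited. A gene can pass that filter through the group where it is high, so the count over all 34 is the fuller one.

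All 15 ERGO-listed genes were lower in rde-4 than in rde-1 when rows of every level were fitted. The smallest of these falls were in C36A4.14 (-0.68 ± 0.04, adjusted p 4.1e-07) and H15N14.4 (-0.26 ± 0.07, adjusted p 0.019), both pseudogenes, with these values taken from the fit with the filter. Without it the adjusted p of H15N14.4 was 0.047, and its call was lost with equal miRNA totals (adjusted p 0.085), without the second rde-1 library (0.077) and without the first rde-4 library (0.061). Of the other genes, jmjc-1 was lower by a small amount (-0.38 ± 0.03, adjusted p 5.2e-06), Y57G11C.57 changed by -0.89 ± 0.05 and Y57G11C.51 by -3.02 ± 0.07. Y57G11C.1145 differed by -0.11 ± 0.08, with an adjusted p of 0.27. F43E2.6 lay under the filter and was not called when every row was fitted. The higher rows were rrn-1.1 and rrn-1.2, at 0.43 ± 0.05 with an adjusted p of 0.00017, rrn-3.1, at 0.35 ± 0.05 with 0.0002, and Y69A2AR.16, at 0.20 ± 0.06 with 0.022, the last of these only with the filter. The Y69A2AR.16 call was also lost without the first rde-1 library (adjusted p 0.077), the first rde-4 library (0.061) or the third rde-4 library (0.077). These rises are small beside the falls, and the rows of every class had a median shift of 0.095, or 0.215 when scaled to equal miRNA totals.

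For comparison, the 22G-RNAs of the genes targeted by feeding were read in the same adults. nrfl-1 22G-RNAs averaged 712 ± 26.6 RPM in rde-4, 58.0 ± 12.4 RPM in rde-1 and 9526 ± 321 RPM in N2 (SD, n = 3 each). They were higher in rde-4 than in rde-1 by 3.61 ± 0.11, with an adjusted p of 1.03e-09 in limma, which is the opposite direction to K02E2.6 and its like. oma-1 22G-RNAs averaged 12.97 ± 1.51 RPM in rde-4, 12.1 ± 1.52 RPM in rde-1 and 529 ± 20.5 RPM in N2. A low level in both mutants was also described above in Y57G11C.1145 and F43E2.6, which were chosen by their N2 level, so the likeness was not tested. Of 59 ERGO-target rows tested, which hold 14 of the 34 genes, 44 were lower in rde-4 than in rde-1 and 6 higher (median change -1.54), and of 2694 CSR-class rows 10 were lower and 590 higher.

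The L4 larvae had no RNAi, and their values did not enter the 1 RPM rule. Whether they were used to draw the class is not known. Most of the 34 genes again had far less 22G-RNA in rde-4 larvae than in N2 larvae. Y37E3.30 had 1.39, 1.99 and 1.09 RPM in rde-4 and 564, 539 and 520 (520.4) RPM in N2. It changed by -7.78 ± 0.11 with an adjusted p of 5.78e-14 in limma. Y37E11B.2 had 3.95, 3.67 and 2.54 RPM in rde-4 and 862, 898 and 861 RPM in N2, and changed by -7.65 ± 0.11. K02E2.6 had 1.12, 1.03 and 0.78 RPM in rde-4 and 373, 372 and 368 RPM in N2, which left 0.264% of the N2 mean. It changed by -7.56 ± 0.08. In these 3 genes the rde-4 and N2 libraries lay far apart.

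Fitted over rows of every level, 24 of the 34 genes were lower in rde-4 larvae and 3 were higher, beside 9.11% and 5.94% of all rows. Of the 23 genes that passed the filter, 16 fell and 3 rose, beside 6.74% and 27.8% of 4482 rows. The median change was -3.95 in these 23 genes and 0.16 over the rows. Over rows of every level it was -1.48 in the 34 genes and 0.04 over the rows. Scaled to equal miRNA totals, 303 rows were lower and 536 higher, against 302 and 1248 as deposited. The ERGO-listed genes gave 14 of the 24 lower ones, and H15N14.4 was the exception, with 8.87, 7.97 and 8.60 RPM in rde-4 and 8.66, 8.73 and 9.06 RPM in N2. Of the remaining genes 10 were lower, and dnj-27, Y116A8C.27, jmjc-1 and Y69A2AR.16 were not called. jmjc-1 differed by -0.04 ± 0.05 (adjusted p 0.55) and Y69A2AR.16 by 0.14 ± 0.08 (adjusted p 0.16).

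The 3 rises in L4 larvae were in rRNA rows. rrn-1.1, with the same reads as rrn-1.2, had 55.2, 46.8 and 63.1 RPM in rde-4 and 31.8, 31.1 and 40.2 RPM in N2, a change of 0.66 ± 0.12 with an adjusted p of 0.0013. rrn-3.1 had 420 (419.8), 332 and 421 RPM in rde-4 and 285, 276 and 347 RPM in N2, a change of 0.37 ± 0.10 with an adjusted p of 0.018. The rrn-3.1 call was lost without the second N2 library (adjusted p 0.10). The rrn-3.1 groups overlapped by 1 library each, while those of rrn-1.1 did not overlap. rrn-2.1 and rrn-3.56 differed by 0.24 ± 0.10 and 0.15 ± 0.10 and did not pass.

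F43E2.6 had 4.29, 4.71 and 4.94 RPM in rde-4 larvae and 47.9, 47.6 and 46.4 RPM in N2 larvae, a change of -3.10 ± 0.08. Y57G11C.1145 had 13.01, 13.2 and 13.2 RPM in rde-4 and 115.2, 99.4 and 104 RPM in N2, a change of -2.92 ± 0.07. Both fell less than K02E2.6 and Y37E3.30 and kept 9.83% and 12.4% of the N2 level. C36A4.14 had 10.5, 11.6 and 10.2 RPM in rde-4 larvae and 113, 120 (120.0) and 121 RPM in N2 larvae, a change of -3.35 ± 0.07 with 9.08% left. In adults the same gene kept 63.7% of the N2 level in rde-4, with 46.4, 44.4 and 43.1 RPM in rde-4 and 67.4, 72.8 and 70.1 RPM in N2. The Y24F12A pair went the other way, with 57.3% and 57.9% left in L4 rde-4 and 19.6% and 18.9% in adult rde-4. Whether such changes differ between the stages was not tested, since the tables were normalized separately and the adults alone were under RNAi.

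**Figure D2:**
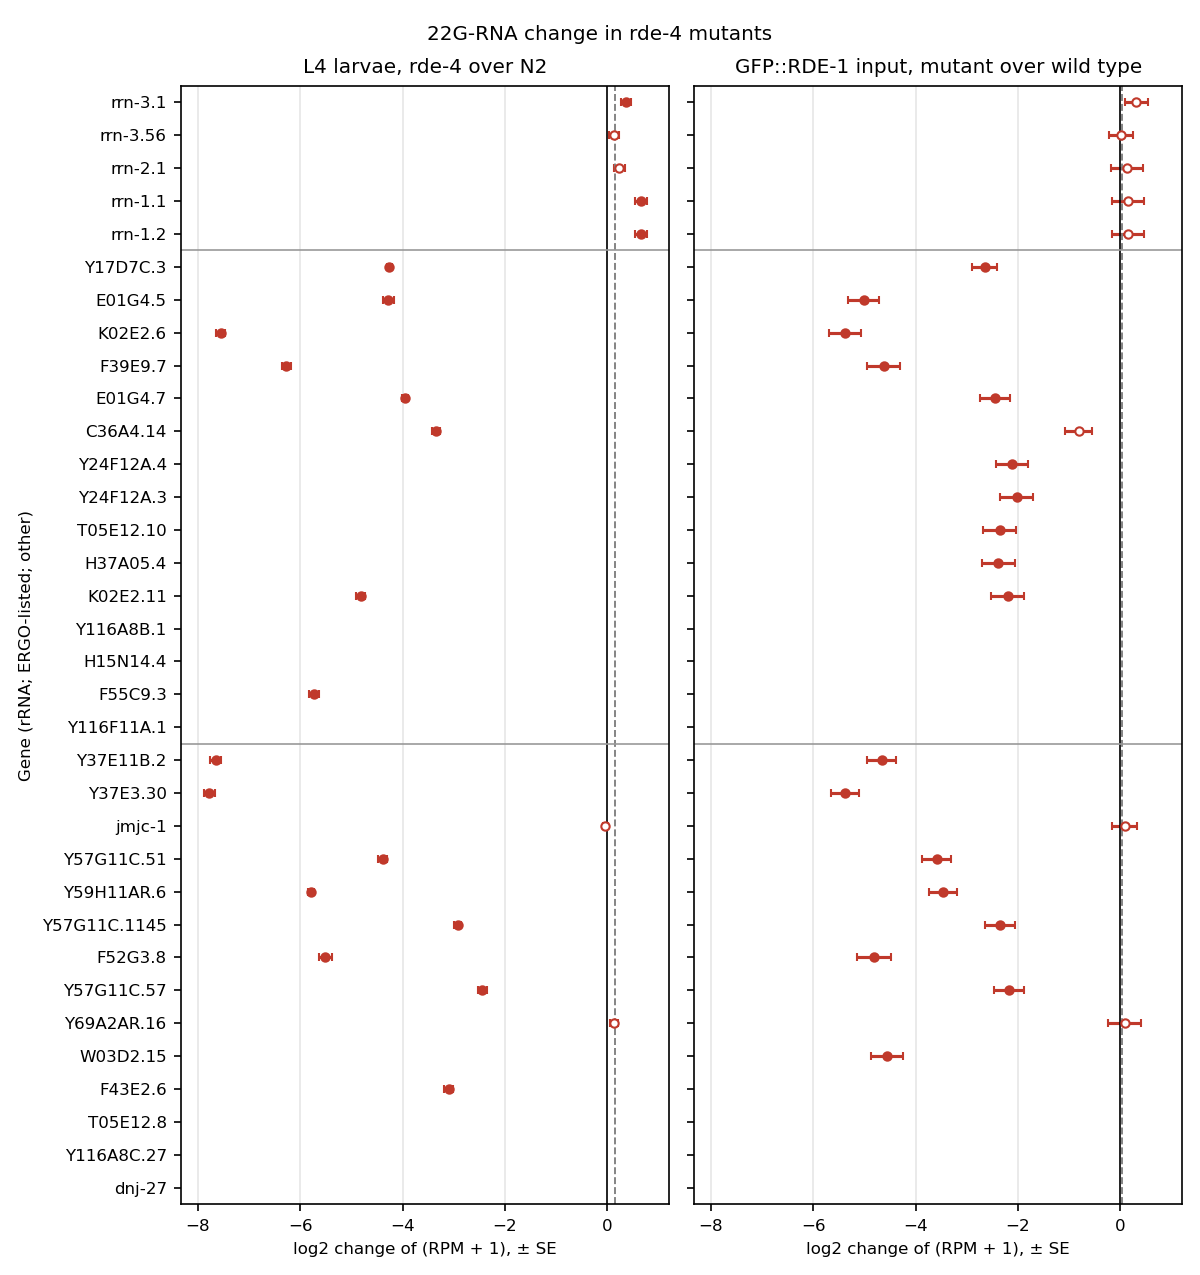
Change of 22G-RNA in rde-4(syb6665) against wild-type rde-4 for each tested gene, as log2 of RPM + 1 with SE, in L4 larvae (left) and in the GFP::RDE-1 inputs (right). Filled points passed an adjusted p under 0.05, open points did not, genes without a point were under the filter, and dashed lines mark the median of all rows tested. Falls reach -7.78 in larvae and -5.38 in the inputs, while the rRNA rows stay near or above 0.

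The GFP::RDE-1 inputs gave a further comparison of rde-4 mutant with wild-type rde-4 adults under RNAi. The 22G-RNAs of the 34 genes summed to 1378 and 1258 RPM in the mutant and 3779 and 3928 RPM in the wild type. Over rows of every level, 23 of the 34 genes were lower in the mutant and 0 higher, beside 1.07% and 0.375% of all rows. Among the 26 that passed the filter, 18 were lower and 0 higher in limma, beside 2.84% and 2.04% of 4372 rows. Y37E3.30 had 9.33 and 7.97 RPM in the mutant and 404 and 396 RPM in the wild type, a change of -5.38 ± 0.28 with an adjusted p of 9.53e-17. K02E2.6 had 3.88 and 4.42 RPM in the mutant and 206 and 220 (219.7) RPM in the wild type, a change of -5.38 ± 0.32. E01G4.5 had 5.99 and 6.59 RPM in the mutant and 225 and 245 RPM in the wild type, a change of -5.02 ± 0.31. The largest rise on the log2 scale, in rrn-3.1, was 0.32 ± 0.23 and did not pass. C36A4.14 moved least of the tested ERGO-listed genes, at -0.81 ± 0.26 with an adjusted p of 0.077, and kept 56.6% of the wild-type level. H15N14.4, which lay under the filter here, kept 77.7%. Across the comparisons of L4 larvae, of adult rde-4 with rde-1 and of these inputs, 21 of the genes passed the filter in all 3, of which 12 were lower in all 3 and 0 were called in opposite directions. Of the 3540 rows tested in all 3, 2.09% were lower in all 3 and 1.36% were called in opposite directions. Some of the 21 genes passed the filter through the group where they are high, such as K02E2.6 and F39E9.7, with 0.98 and 0.56 RPM in rde-4 larvae. The 3 comparisons were not counted together over rows of every level, so nothing is read from this agreement.

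The 23H-RNAs of the same genes showed where primary small RNA stood. How the authors chose the 23H-RNA rows is not given in the sources used here, and if the co-IPs were used, their enrichment would be part of the choice, so these values carry no test. Summed per gene, F43E2.6 had 12.5, 12.6 and 13.6 RPM in rde-4 larvae and 362, 373 and 379 RPM in N2 larvae. In adults it had 10.3, 6.36 and 4.83 RPM in rde-4, 271, 271 and 279 RPM in rde-1, and 167, 176 and 154 RPM in N2. The rde-1 libraries were thus above those of N2 for the 23H-RNA, while for the 22G-RNA of this gene they were far below. Y57G11C.1145 had 25.1, 25.0 and 27.0 RPM in rde-4 larvae and 31.8, 29.9 and 29.0 RPM in N2 larvae. In adults it had 49.0, 42.8 and 40.3 RPM in rde-4, 87.9, 80.5 and 78.8 RPM in rde-1, and 46.5, 52.9 and 39.3 RPM in N2. The rde-4 larvae lay below the N2 larvae, and rde-4 adults overlapped those of N2. Its leading 23H-RNA, printed above, averaged 3.60 RPM in rde-4 larvae and 6.37 RPM in N2 larvae, and 6.5 RPM in rde-4 adults, 10.7 RPM in rde-1 adults and 12.2 RPM in N2 adults.

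In the RDE-1 co-IPs these contrasts were wider. F43E2.6 23H-RNA had 761 and 227 RPM in the mutant co-IPs, 81.6 and 613 RPM in the mutant inputs, 42664 and 97923 RPM in the wild-type co-IPs, and 346 and 433 RPM in the wild-type inputs. The mutant inputs lay on both sides of the wild-type inputs, and the second mutant input also had the higher sum of all 23H-RNA. Y57G11C.1145 23H-RNA had 492 and 221 RPM in the mutant co-IPs, 92.6 and 210 (209.8) RPM in the mutant inputs, 7536 and 25048 RPM in the wild-type co-IPs, and 107 and 115.3 RPM in the wild-type inputs. Its mutant inputs lay on both sides of the wild-type inputs, whereas its mutant co-IPs were far under the wild-type co-IPs.

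Apart from the rRNA rows, all 28 genes with 23H-RNAs had more of them in both wild-type co-IPs than in either wild-type input, and less in both mutant co-IPs than in either wild-type co-IP. Of single 23H-RNA rows that averaged 1 RPM or more in the wild-type co-IP, 99.7% and 96.8% did the same, beside 10.1% and 11.6% of rows of every class. Those rows were kept by their wild-type co-IP level. Of all 1194 23H-RNA rows, 535 are named for these genes, so the counts are not independent and nothing is read from their agreement. The mutant co-IP held 0% to 2.23% of the wild-type co-IP level in those 28 genes, with a median of 0.334%, and in 25 of them less than 1 RPM. Y17D7C.3 had 0.23 and 0.25 RPM in the mutant co-IPs, 0.13 and 1.44 RPM in the mutant inputs, 220 (219.6) and 276 RPM in the wild-type co-IPs, and 3.91 and 4.81 RPM in the wild-type inputs. K02E2.6 had 0.08 and 0.1 RPM in the mutant co-IPs, 0.04 RPM in both mutant inputs, 25.3 and 34.1 RPM in the wild-type co-IPs, and 0.05 and 0.14 RPM in the wild-type inputs, all but the wild-type co-IPs at or under about 3 reads. The strong 22G-RNA signal of K02E2.6 thus stood beside 23H-RNA that was barely detectable without the co-IP. This gene is ERGO-listed, however, and also had 26G-RNA. That averaged 0.74 RPM in rde-4 adults, 21.7 RPM in rde-1 adults and 22.4 RPM in N2 adults. In the GFP::RDE-1 inputs it averaged 0.29 RPM in the mutant and 10.6 RPM in the wild type.

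The rRNA rows were different in these co-IPs. rrn-3.1 23H-RNA had 325 and 70.4 RPM in the mutant co-IPs, 20.8 and 23.9 RPM in the mutant inputs, 156 and 82.3 RPM in the wild-type co-IPs, and 16.4 and 16.4 RPM in the wild-type inputs. rrn-1.1 had 79.2 and 14.4 RPM in the mutant co-IPs and 23.4 and 21.0 RPM in the wild-type co-IPs. In both genes the 2 mutant co-IPs lay on either side of the wild-type ones, with the first high and the second low. rrn-2.1, with 10.5 and 5.91 RPM in the mutant co-IPs and 43.4 and 44.7 RPM in the wild-type co-IPs, was the one rRNA row that was lower in the mutant without overlap.

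**Figure D3:**
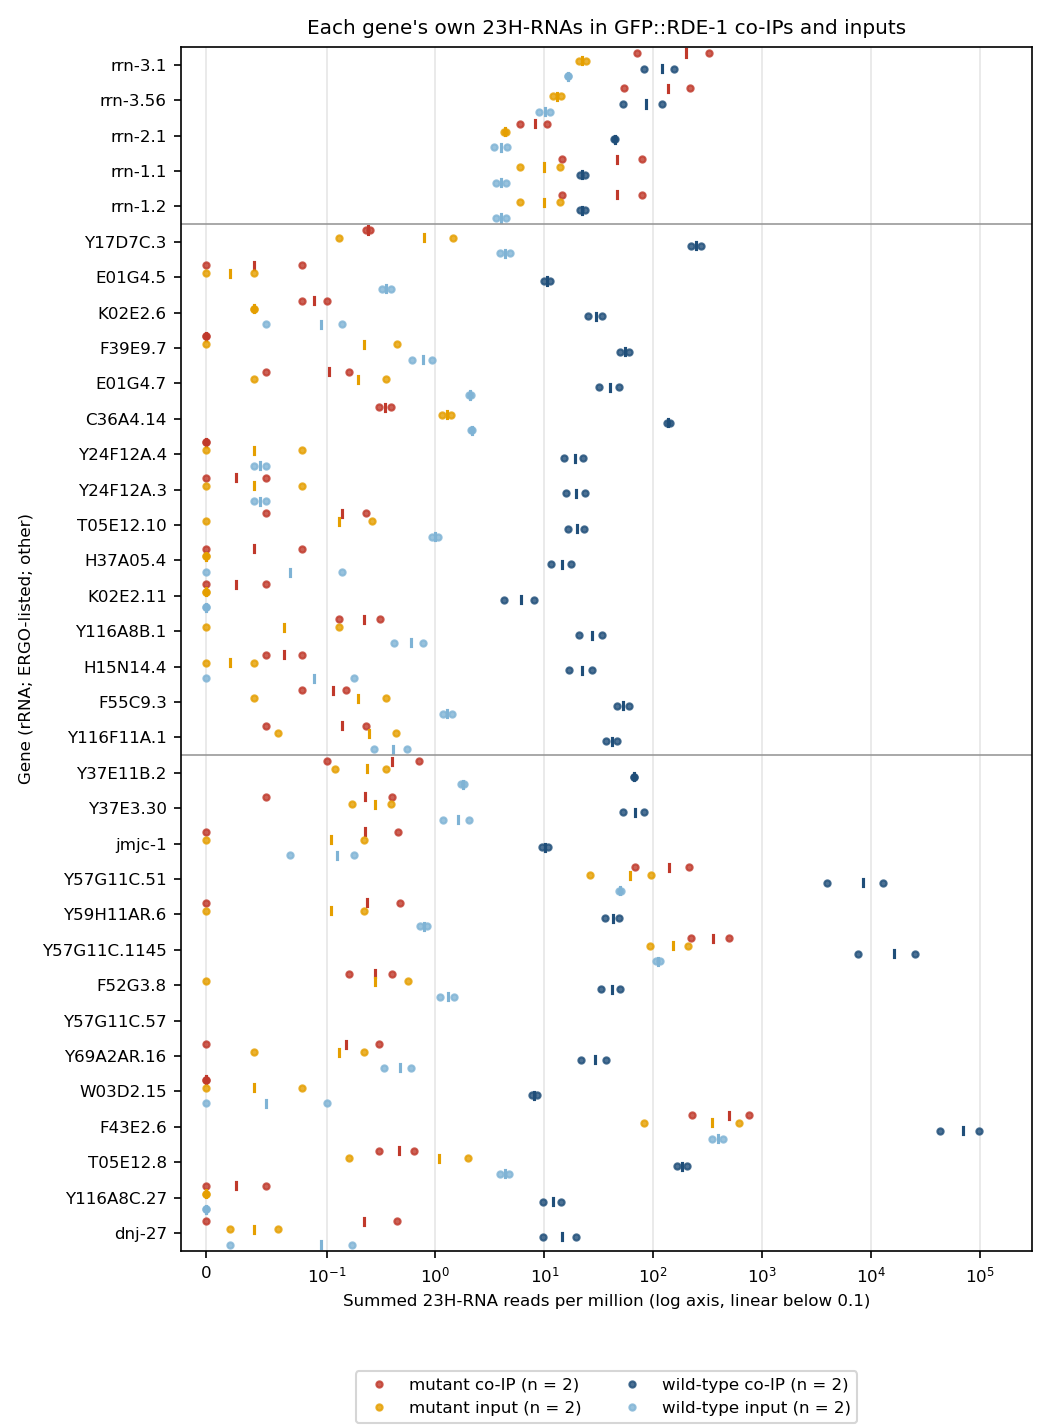
Summed 23H-RNA of each gene in GFP::RDE-1 co-IPs and inputs, in RPM on an axis that is logarithmic above 0.1 and linear below it. Points are libraries and short bars are means (2 libraries per group), and Y57G11C.57 has no 23H-RNA row. Outside the rRNA rows the wild-type co-IP lies to the right of the mutant co-IP in every gene. Only F43E2.6, Y57G11C.1145 and Y57G11C.51 keep more than 1 RPM in the mutant co-IP. They also have the highest wild-type co-IP levels, of which they keep 0.703%, 2.19% and 1.67%, beside 2.23% in jmjc-1. Y57G11C.51 shares its leading sequence with Y57G11C.1145. That sequence gave 135 of its mean 140 RPM in the mutant co-IP and 8232 of its mean 8380 RPM in the wild-type co-IP. These 2 genes are thus not separate cases.

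The 22G-RNAs of the genes were depleted, not enriched, in the RDE-1 co-IPs, as were most rows. RPM are relative values, and all 22G-RNAs together made up 159444 and 109138 RPM in the mutant co-IPs, 381817 and 378677 RPM in the mutant inputs, 84630 and 75747 RPM in the wild-type co-IPs, and 356491 and 371454 RPM in the wild-type inputs. In the wild type, all 26 genes tested were lower in the co-IP than in the input, beside 95.1% of 4372 rows lower and 4.0% higher. Over rows of every level it was 33 of the 34 genes, beside 46.4% of 20283 rows lower and 6.22% higher. The median change was -2.49 in the genes and -2.13 over the rows. The largest falls were in Y37E11B.2, at -3.37 ± 0.28 with an adjusted p of 6.17e-12 in limma, K02E2.6, at -3.32 ± 0.32, and Y37E3.30, at -3.14 ± 0.28. The smallest were in rrn-2.1 (-0.76 ± 0.31), Y57G11C.57 (-0.91 ± 0.30), rrn-1.1 with rrn-1.2 (-1.04 ± 0.31), rrn-3.56 (-1.11 ± 0.23) and Y57G11C.1145 (-1.15 ± 0.29). The rrn-2.1 call was lost without the filter (adjusted p 0.11) and without the second wild-type co-IP (0.24) or input (0.14). The Y57G11C.57 call was lost without the first wild-type co-IP (0.13) or the second wild-type input (0.076). Y57G11C.57 had 21.5 and 32.9 RPM in the wild-type co-IPs and 48.1 and 54.0 RPM in the wild-type inputs.

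In the mutant, 17 of the 26 genes were lower in the co-IP and 0 higher, beside 92.5% of rows lower and 2.9% higher. Over rows of every level 16 of the 34 genes were lower and 0 higher, beside 39.2% of rows lower and 0.853% higher. The median change was -0.75 in the genes and -1.56 over the rows. The largest falls were in Y69A2AR.16, at -1.72 ± 0.32 with an adjusted p of 1.1e-05 in limma, jmjc-1, at -1.43 ± 0.24, and Y24F12A.3, at -1.27 ± 0.32. Y69A2AR.16 had 16.9 and 7.79 RPM in the mutant co-IPs and 40.1 and 40.8 RPM in the mutant inputs. jmjc-1 had 136 and 82.9 RPM in the mutant co-IPs, 285 and 293 RPM in the mutant inputs and 264 and 278 RPM in the wild-type inputs. Scaled to equal miRNA totals, all 31 genes then tested were lower, so the size of the depletion rests on the scaling.

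The difference of the 2 co-IP changes, mutant minus wild type, was above 0 in all 26 genes tested, as it was in 96.3% of the 4372 rows, and passed the test in 11, beside 1.4% of rows higher and 1.9% lower. Over rows of every level 12 of the 34 genes passed, all higher, beside 0.493% of rows higher and 2.64% lower. Its median over the genes was 1.27, beside 0.57 over all rows. The 4 largest of those with the filter were in K02E2.6, at 3.15 ± 0.45 with an adjusted p of 2.89e-06 in limma, Y37E11B.2, at 2.58 ± 0.40, Y37E3.30, at 2.53 ± 0.39, and W03D2.15, at 2.53 ± 0.45. K02E2.6 had 5.52 and 2.21 RPM in the mutant co-IPs, 3.88 and 4.42 RPM in the mutant inputs, 19.3 and 21.5 RPM in the wild-type co-IPs, and 206 and 220 (219.7) RPM in the wild-type inputs. Y37E11B.2 had 11.4 and 5.96 RPM in the mutant co-IPs, 12.9 and 17.5 RPM in the mutant inputs, 35.3 and 41.8 RPM in the wild-type co-IPs, and 388 and 425 RPM in the wild-type inputs. W03D2.15, a noncoding RNA gene on chromosome IV, had 0.44 and 0.47 RPM in the mutant co-IPs, 0.83 and 1.20 RPM in the mutant inputs, 4.65 and 5.18 RPM in the wild-type co-IPs, and 45.0 and 47.3 RPM in the wild-type inputs. It entered the fit through its wild-type inputs alone. K02E2.6 and, among the other genes that passed, F39E9.7, F52G3.8 and K02E2.11 also average under 10 RPM without their wild-type inputs. In K02E2.6 the mutant inputs lay between the 2 mutant co-IPs, while in Y37E11B.2 and W03D2.15 both mutant inputs were above both mutant co-IPs. A scale of log2(RPM + 1) understates a fall between values as low as those of W03D2.15 in the mutant, which makes its difference between strains larger. With the second mutant co-IP left out, 24 genes and 3561 rows passed, against 144 rows with it, and the K02E2.6 change in the mutant was 0.34, so this count rests on the 2 mutant co-IPs, which differ from each other.

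**Figure D4:**
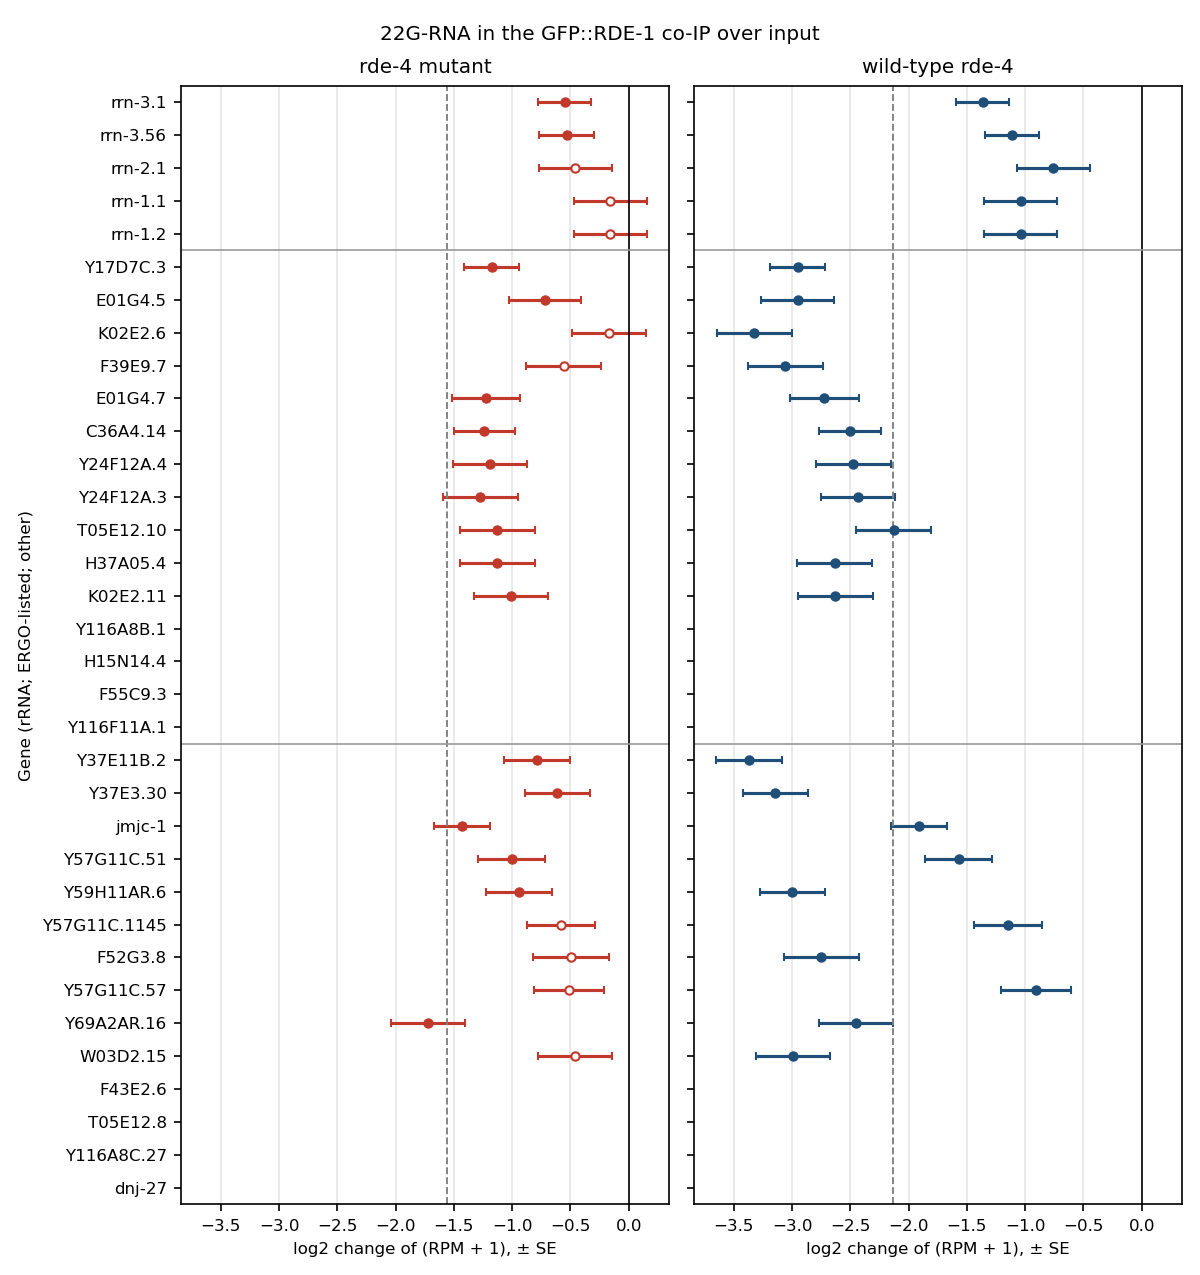
Change of 22G-RNA between GFP::RDE-1 co-IP and input for each tested gene in the rde-4 mutant (left) and in wild-type rde-4 (right), as log2 of RPM + 1 with SE. Filled points passed an adjusted p under 0.05, open points did not, and dashed lines mark the median of all rows, at -1.56 in the mutant and -2.13 in the wild type. Most genes lie right of the dashed line in the mutant and left of it in the wild type, while the rRNA rows lie right of it in both.

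The 15 ERGO-listed genes could also be followed by their 26G-RNAs, the primary small RNAs of that pathway. In 11 of them 26G-RNA reached 0.5 RPM in N2 adults, and in all 11 it was lower in every rde-4 adult library than in any N2 library, at 0.718% to 14.6% of the N2 level. The rde-1 adults kept 68.8% to 97.2% of it, with 6 of the 11 genes lower without overlap. Of the 48 ERGO-class 26G-RNA rows with that level in N2, these 11 included, 97.9% were lower without overlap in rde-4 and 29.2% in rde-1. The N2 level chose the 11, so these counts are a description. Summed over the 15 genes, 26G-RNA came to 19.9 to 22.2 RPM in rde-4 adults, 298 to 330 (329.5) RPM in rde-1 adults and 379 to 401 RPM in N2 adults. T05E12.10, a noncoding RNA gene, had 8.84, 9.89 and 10.6 RPM of 26G-RNA in rde-4, 72.0, 84.8 and 83.5 RPM in rde-1, and 84.6, 92.4 and 87.1 RPM in N2. Y17D7C.3 had 3.64, 3.16 and 4.62 RPM in rde-4, 72.4, 73.0 and 84.7 RPM in rde-1, and 117, 114 and 103 RPM in N2. Its 26G-RNA and its 22G-RNA were both intermediate in rde-1.

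In L4 larvae the 11 genes kept 0.705% to 4.84% of their N2 26G-RNA in rde-4, and the sums were 0.93 to 1.65 RPM in rde-4 and 94.3 to 112 RPM in N2. In the GFP::RDE-1 inputs they kept 1.98% to 8.91%, and the wild-type inputs there differed from each other, with sums of 76.1 to 209 RPM. The other 4 ERGO-listed genes, Y24F12A.3, Y24F12A.4, H37A05.4 and H15N14.4, had at most 0.26 RPM of 26G-RNA in any adult library, close to the value of 3 reads. H37A05.4 nonetheless had 4.58, 4.56 and 4.33 RPM of 22G-RNA in rde-4 adults, 30.8, 30.4 and 31.9 RPM in rde-1 adults, and 33.1, 38.0 and 34.8 RPM in N2 adults. Of the other 3, the Y24F12A pair is given above, and H15N14.4 kept 75.8% of its N2 22G-RNA in rde-4 adults and 96.2% in rde-4 larvae. Whether falls of 22G-RNA differ with the presence of 26G-RNA was not tested.

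**Figure D5:**
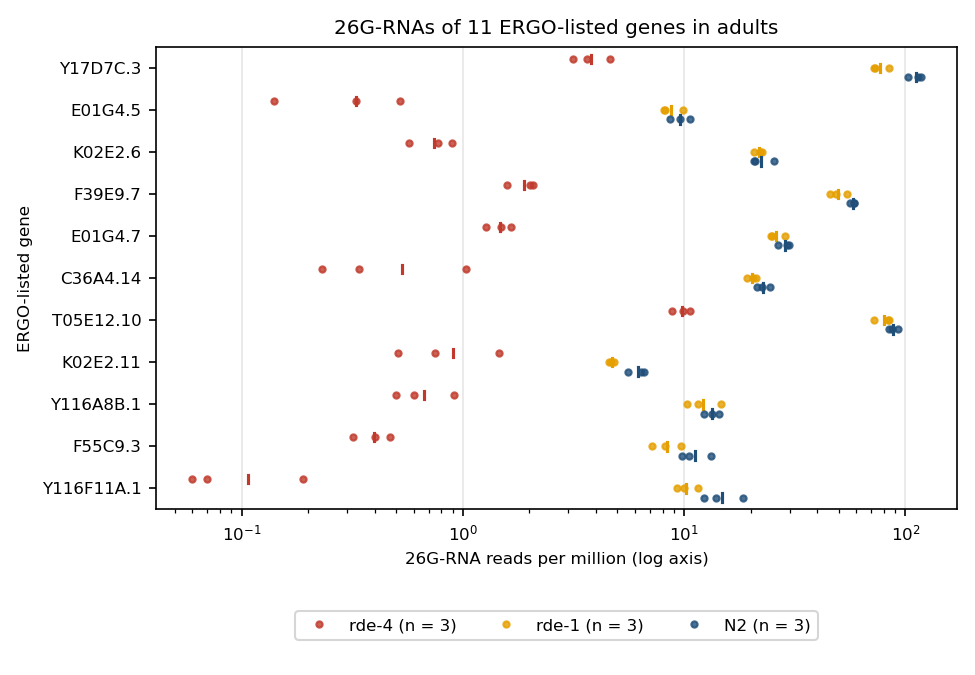
Level of 26G-RNA in adults for the 11 ERGO-listed genes with at least 0.5 RPM in N2, in RPM on a log axis. Points are libraries and short bars are means for rde-4, rde-1 and N2 (3 libraries each). The rde-4 points lie apart at the left in every gene, and the rde-1 points lie close to those of N2.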

How the data were processed

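Small RNA levels were read from 3 tables that the authors deposited in RPM (reads scaled to library size), made with the tinyRNA pipeline per the series design text. Its version, settings, genome build and annotation are not given in the sources used here. RPM are relative to each library, and no count model was used. Columns were matched to samples by their headers, and 0 value columns were left unmapped. The members and gene lists were chosen with earlier results of these data known.

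For the tests, log2(RPM + 1) values were fitted in limma (version 3.58.1, R 4.3.3), all groups of a table together, with a mean-variance trend. Rows averaging 10 RPM or more over a table entered, and a change was called at a BH-adjusted p under 0.05. The fits were tested on simulated data. Changes of low rows are understated on this scale.

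Genes are named by rule: the 10 highest in N2 adults, the 3 largest called rises and falls of each comparison, class rows next to the 1 RPM limit, the feeding targets, and genes called in opposite directions. Other genes named, among them F43E2.6, the Y57G11C cluster, C36A4.14 and H15N14.4, were chosen after their values were seen. Printed 23H-RNA sequences are rows of the deposited tables. Gene positions are from Ensembl release 115 (WBcel235), by gene identifier. Complementary 23H-RNA sites in the genes were not analysed here. Figures were drawn with matplotlib 3.10.9.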

Additional observations from a re-analysis of the deposited data

Results flagged for a closer look

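In 11 genes the change of 22G-RNA from input to GFP::RDE-1 co-IP differed between the rde-4 mutant and wild-type rde-4, by a test of the difference itself (limma, BH-adjusted p under 0.05, mutant minus wild type on the log2 scale). The differences were 3.15 in K02E2.6, 2.58 in Y37E11B.2, 2.53 in W03D2.15, 2.53 in Y37E3.30, 2.50 in F39E9.7, 2.25 in F52G3.8, 2.24 in E01G4.5, 2.05 in Y59H11AR.6, 1.78 in Y17D7C.3, 1.62 in K02E2.11 and 1.5 in E01G4.7. All rows tested had a median of 0.57, and 96.3% of them were above 0. The E01G4.7 and K02E2.11 calls were each lost under several alternatives, among them another pseudocount, other scalings and the loss of 1 library, the E01G4.5 call without the filter (adjusted p 0.068), and with equal miRNA totals those of Y17D7C.3 (0.33) and Y59H11AR.6 (0.066). The 11 genes kept 1.95% to 19.7% of their wild-type 22G-RNA level in the mutant input, and the part of low values and of the 2 unlike mutant co-IPs in these differences was not tested. Among them, K02E2.6, W03D2.15, F39E9.7, F52G3.8 and K02E2.11 passed the filter only through their wild-type inputs. Groups held 2 or 3 libraries, too few to look for single libraries far from the rest.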

How the results depend on the processing

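Depth limits values under about 0.131 to 0.234 RPM, where many of the 23H-RNA and 26G-RNA sums lie in rde-4, and 2 libraries per group limit the RDE-1 comparisons. Counts of genes called kept within 1.5 times of those reported, except that 31 genes (of 31 tested) were lower in the mutant co-IP when scaled to equal miRNA totals, that genes passing the difference between strains numbered 8 to 24 with 1 library left out, and that 4 to 7 genes were higher in rde-1 than N2 adults. Fits that leave 1 library in a group assume it varies like the others. Over all rows, equal miRNA totals gave 839 calls in larvae, against 1550 as deposited, and 3562 between the adult mutants, against 1662. With a filter of 1 RPM or none, calls over all rows numbered 3320 and 3152 in larvae, 8476 and 10664 in the wild-type co-IP against 4332 as reported, 7675 and 8123 in the mutant co-IP against 4172, and 389 and 636 for the difference between strains against 144, as more rows were tested. Larval calls numbered 844 without the second N2 library and 1011 without the third. Input calls numbered 131 without the first wild-type input, 340 and 343 without the first or second mutant co-IP, and 515 with the 2 input groups alone, against 213. The difference between strains had 3561 calls without the second mutant co-IP. The cause of the other shifts was not tested.

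Signs turned only in values that had not passed. Y57G11C.1145 in rde-4 against rde-1 adults was 0.003 with equal miRNA totals, and the difference between strains for rrn-2.1 was -0.0187. With 1 library left out, the input changes ranged from -0.21 to 0.49 in rrn-2.1, -0.16 to 0.21 in rrn-3.56 and -0.0089 to 0.19 in Y69A2AR.16. The changes in the mutant co-IP ranged from -0.44 to 0.12 in rrn-1.1 and rrn-1.2 and from -0.68 to 0.34 in K02E2.6, and the difference between strains from -0.0453 to 0.65 in rrn-2.1. Of 2373 alternative values over 157 tested gene values, 2254 kept direction and call, 60 lost the call, 48 gained it and 11 turned sign.

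Replicate numbers did not pair the libraries (correlations of -0.06 to 0.14 in larvae and -0.122 to 0.19 between the adult mutants). In the RDE-1 set, where 2 pairs give 1 value, it was 0.297 between mutant and wild-type inputs, -0.078 between mutant co-IP and input and 0.062 between wild-type co-IP and input, and the labels do not say that a co-IP and an input of 1 number share a lysate. With the replicate block, genes lower numbered 16 in larvae, 23 in adults, 19 in the inputs, 18 in the mutant co-IP and 26 in the wild-type co-IP, and 13 passed the difference between strains.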
